A study of Mus musculus with 2 samples.

Results

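The transcription factors described here were 10 genes, Otx2, Crx, Six3, Lhx2, Rax, Pax6, Mitf, Tfec, Sox9 and Sox10, of the 32285 genes counted in a single-cell RNA sequencing experiment on the retinal pigment epithelium (RPE). They were chosen as known regulators of the RPE and of pigment cells, and each was matched by symbol to the counted genes. The cells came from the RPE, choroid and sclera of male C57BL/6J mice 3 months of age, 7 days after a subretinal injection. The control group received 1 µl of phosphate-buffered saline (PBS), and the other group 1 µl of Dox at 100 ng/µl. Dox is doxorubicin, a drug that damages DNA and is used to induce senescence. The cells of 10 eyes of 5 mice were pooled in each group, all mice were injected, and Dox reached only part of the RPE. Each group had 1 library, so that treatment, library and injection cannot be told apart and no test between the groups was made.

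The RPE is the pigmented monolayer behind the photoreceptors, which recycles their chromophore, engulfs their shed outer segments and makes melanin. During eye development, the homeobox factors Rax, Six3, Lhx2 and Pax6 set up the eye field and the optic vesicle, and Otx2 together with Mitf then directs its outer layer to an RPE fate. Mitf, a basic helix-loop-helix leucine zipper factor of the MiT family, switches on melanin genes in the RPE and in melanocytes of the neural crest, whereas Sox10 is known as a factor of neural crest cells, melanocytes and Schwann cells. Sox9, its relative in the SoxE family, acts with Otx2 on visual cycle genes in the RPE.

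The sequences to which these factors bind are short, and 4 promoters are shown because they belong to 3 of the factors and to Rpe65, the gene that defined the RPE cells here, and hold such motifs. They were read from RefSeq on GRCm38.p6 for the bases upstream of a transcription start, stopping at the first annotated exon. Capitals mark a match to 1 of 4 motifs, searched on both strands: the E-box CACGTG and the M-box core CATGTG, which MiT factors bind, the OTX site TAATCC, and the SOX site ACAAAG. Positions are counted back from the RefSeq start. Of 4 Otx2 starts with an entry, 1 that lies inside the annotated gene (chr14:48667645-48667894, minus strand) held an M-box core as CACATG at -124, the promoter of an internal Mitf start (chr6:97929567-97929798, plus strand) an OTX site as GGATTA at -119, the Crx promoter (chr7:15879969-15880205, minus strand) OTX sites at -94 and -21, and the Rpe65 promoter (chr3:159598931-159599174, plus strand) an M-box core at -239 and an OTX site at -42.
Otx2 promoter, internal start: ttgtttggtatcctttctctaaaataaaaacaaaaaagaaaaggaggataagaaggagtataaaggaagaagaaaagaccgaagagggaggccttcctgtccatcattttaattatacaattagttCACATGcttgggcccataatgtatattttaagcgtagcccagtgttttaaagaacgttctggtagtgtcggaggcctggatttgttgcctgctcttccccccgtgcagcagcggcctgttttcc
Mitf promoter, internal start: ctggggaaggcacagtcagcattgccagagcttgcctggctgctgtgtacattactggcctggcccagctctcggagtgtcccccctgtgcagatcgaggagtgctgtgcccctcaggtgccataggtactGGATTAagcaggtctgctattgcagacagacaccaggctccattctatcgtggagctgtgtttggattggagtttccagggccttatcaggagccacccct
Crx promoter: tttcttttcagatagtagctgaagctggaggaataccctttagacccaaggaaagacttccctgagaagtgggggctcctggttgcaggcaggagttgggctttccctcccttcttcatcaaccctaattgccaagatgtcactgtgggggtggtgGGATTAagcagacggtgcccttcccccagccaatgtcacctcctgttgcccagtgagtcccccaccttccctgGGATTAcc
Rpe65 promoter: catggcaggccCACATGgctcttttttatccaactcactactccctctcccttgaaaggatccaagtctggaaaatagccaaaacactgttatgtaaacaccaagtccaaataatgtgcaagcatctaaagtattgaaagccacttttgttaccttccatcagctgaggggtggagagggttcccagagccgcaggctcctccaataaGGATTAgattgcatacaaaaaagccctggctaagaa

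Such matches are common. Of 32851 promoters of 250 bases, 6.02% held the E-box, 12.3% the M-box core, 6.25% the OTX site, 16.5% the SOX site and 35.5% at least 1 of the 4. Promoters on chromosome 18, where Rax lies, were left out. For the factors themselves, 7 of 10 had an entry, with 14 starts, of which 5 held a match: 0 an E-box, 1 an M-box core, 3 an OTX site and 1 a SOX site. A match describes letters in a window and no binding was measured.

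RPE cells were defined by at least 10 unique molecular identifiers (UMIs, tags that mark single RNA molecules) of Rpe65, the isomerase of the visual cycle. This gave 1526 RPE cells of 20180 cells in control and 1630 of 15426 in Dox, with medians of 16013.5 and 18115.5 UMIs per cell. Rpe65 was at 4966 UMIs per 1000000 (CPM) in the control RPE cells and at 4867 CPM in the Dox RPE cells, and 86.3% and 86.1% of these cells lay in the cluster with RPE markers. The limit was passed narrowly by some cells, since 175 control and 223 Dox cells had 8 to 12 Rpe65 UMIs. Of the barcodes kept, 427 occurred in both libraries, 3 of them as RPE cells. Of the markers of other cell types, Aqp4, a Müller glia marker, had 0 UMIs in the control RPE cells and 3 in the Dox RPE cells. Other genes of the Müller glia list were high, with Car14 at 1547 CPM and Glul at 936 CPM in control and at 1554 and 1067 CPM in Dox. Melanocyte markers summed to 2996 CPM in control and 1884 CPM in Dox, fibroblast markers to 2427 and 1585 CPM, and macrophage markers to 402 and 187 CPM, so that all 3 lists were lower in the Dox RPE cells. Dct, a melanin enzyme that RPE cells make as well, gave 1569 of the 2996 CPM of the melanocyte list in control and 1033 of the 1884 CPM in Dox. Of these lists, 10 of 12 melanocyte and 13 of 16 fibroblast markers were at 10 CPM or more in each library, and 10 of 13 macrophage markers in control against 4 in Dox. Of the 341 CPM of the rod photoreceptor marker list in control, 339 came from Rom1.

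Levels below are CPM summed over cells, with exact Poisson 95% intervals, and ratios are log2 of CPM with exact conditional binomial 95% intervals. Both cover counting error only and not the spread between mice, which these data do not hold. CPM of the 5′ tags are not scaled to gene length, and levels were therefore compared between cells and not between genes.

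Among the homeobox factors, Otx2 (chromosome 14, 48657677 to 48673819, minus strand) was at 389.7 CPM (382 to 397) in control RPE cells and at 446 CPM (438 to 453) in Dox RPE cells. At least 1 Otx2 UMI was counted in 94.4% of the control and 95.5% of the Dox RPE cells, with up to 39 and 35 UMIs in a cell. The log2 ratio of Dox to control was 0.19 (0.16 to 0.23), so that the Dox level was above the control level by more than counting error. Within each library Otx2 varied from cell to cell, the middle 50% of cells lying between 225 and 569 CPM in control and between 286 and 639 CPM in Dox.

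Six3 (chromosome 17, 85613608 to 85629302, plus strand), which represses Wnt signals in the forebrain and eye field, was at 126 CPM (122 to 131) in control and 143 CPM (138 to 147) in Dox RPE cells, a log2 ratio of 0.17 (0.11 to 0.24). Lhx2 (chromosome 2, 38339281 to 38369733, plus strand), a LIM homeobox factor needed for the optic vesicle, was at 52.1 CPM (49.4 to 55.0) and 50 CPM (47.5 to 52.5), with a log2 ratio of -0.06 (-0.17 to 0.05). The Six3 levels were apart by more than counting error and those of Lhx2 were not.

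Pax6 and Rax were counted rarely. Pax6 (chromosome 2, 105668900 to 105697364, plus strand), the paired-box factor of the optic vesicle and of adult amacrine and ganglion cells, had 108 UMIs in 98 of 1526 control cells and 147 UMIs in 133 of 1630 Dox cells. These gave 4.10 CPM (3.37 to 4.96) and 4.71 CPM (3.98 to 5.54), a log2 ratio of 0.20 (-0.17 to 0.57) that included 0. Rax, on chromosome 18, an early marker of the eye field, had 122 UMIs in 112 control cells and 234 UMIs in 187 Dox cells, with 3 UMIs at most in a cell of either library. Its level was 4.64 CPM (3.85 to 5.54) in control and 7.5 CPM (6.57 to 8.52) in Dox, and cells with 2 or more Rax UMIs numbered 9 and 38. The log2 ratio of 0.69 (0.37 to 1.02), a fold of 1.62, made Rax the factor with the highest ratio of Dox to control.

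Crx (chromosome 7, 15865947 to 15879968, minus strand), a close relative of Otx2 that drives photoreceptor genes, had 4 UMIs in the RPE cells of each library, or 0.152 CPM (0.0414 to 0.389) in control and 0.128 CPM (0.0349 to 0.328) in Dox. Its counts allow no comparison between the libraries.

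Of the MiT factors, Mitf (chromosome 6, 97807052 to 98021349, plus strand) was at 103 CPM (99.4 to 107) in control and at 97.0 CPM (93.6 to 101) in Dox RPE cells. The log2 ratio was -0.09 (-0.17 to -0.01), a difference of the opposite sign to that of Otx2 and close to the edge of counting error. As the mean of the cells' own CPM, in place of the CPM of their summed UMIs, the Mitf ratio was 0.0063, so that its sign was not stable. Mitf was counted in 73.7% and 74.8% of the cells. Tfec (chromosome 6, 16833373 to 16898441, minus strand), a MiT relative of Mitf, had 4 UMIs in control and 2 in Dox RPE cells, or 0.152 and 0.0641 CPM. Adult RPE cells of these libraries thus gave almost no Tfec or Crx tags, whereas the other 8 factors had at least 50 UMIs over both libraries.

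Of the SoxE factors, Sox9 (chromosome 11, 112782224 to 112787760, plus strand) was at 309 CPM (303 to 316) in control and 343 CPM (336 to 349) in Dox RPE cells, a log2 ratio of 0.15 (0.11 to 0.19). Sox9 UMIs were found in 90.0% and 91.8% of the cells, with up to 41 and 53 in a cell. Sox10 (chromosome 15, 79154908 to 79165240, minus strand) was at 69.7 CPM (66.5 to 72.9) and 69.0 CPM (66.2 to 72), a log2 ratio of -0.01 (-0.10 to 0.08), and was counted in 62.4% and 63.1% of the RPE cells. The Sox10 level thus differed by no more than counting error, and Schwann cell markers in the same cells summed to 45.8 CPM in control and 33.8 CPM in Dox.

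**Figure D1:**
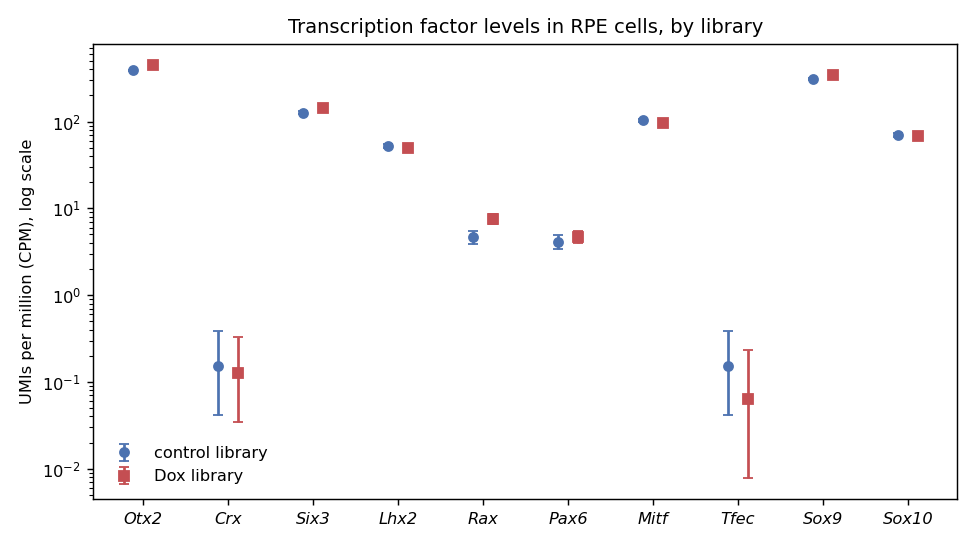
Level of each transcription factor in RPE cells (CPM, log axis) in the control and Dox libraries, with exact Poisson 95% intervals of counting error as bars and 1 library per condition. Otx2 lies at 389.7 and 446 CPM and Rax at 4.64 and 7.5 CPM with intervals apart, while the intervals of Lhx2 and Sox10 overlap and Crx and Tfec lie below 1 CPM.

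A gene was counted as higher or lower when its CPM differed by at least 1.5-fold and it had at least 50 UMIs over both groups compared. Of the 8 factors with enough UMIs, 1, Rax, was higher in Dox than in control RPE cells, where 1.66% of 12774 genes were higher. None of the 8 (0) was lower, where 4.92% of all genes were. The median log2 ratio of the factors was 0.16, against -0.01 for all genes. In Serpina3n-low cells, defined below, 0 of 8 were higher and 0 lower, where 1.05% and 3.87% of 12617 genes were, and the median was 0.14 against 0.01. There Rax had a log2 ratio of 0.42 (0.07 to 0.78) and Otx2 one of 0.26.

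The other eye and pigment cell transcription factors were taken as a list of 30 genes. In RPE cells 16 of them had enough UMIs, of which 0 were higher and 2 lower in Dox, where 1.66% and 4.92% of all genes were. The median log2 ratio of the 16 was -0.19, against -0.01 for all genes. The 2 were Pax3, which acts upstream of Mitf in melanocytes, whose level was 2.85 CPM (control) against 0.705 CPM (Dox), and Tfap2a, a neural crest factor, with a log2 ratio of -1.21 (-2.06 to -0.40). Both were counted with fewer than 100 UMIs over both libraries. Tfe3 and Tfeb, the MiT factors of lysosome genes, were at 12 and 11.2 CPM in control, with log2 ratios of 0.21 (0.00 to 0.43) and -0.03 (-0.26 to 0.20). The eye field relatives Six6 and Lhx9, which were named for their family after their values had been seen, had 0 UMIs in the RPE cells of both libraries.

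Genes that textbook knowledge places under Otx2, Mitf or Sox9 in the RPE or in melanocytes formed a list of 23, of which 21 had enough UMIs. Of these 0 were higher and 6 lower in Dox RPE cells, where 1.66% and 4.92% of all genes were. The median of the 21 was -0.10, against -0.01 for all genes. Pmel, the fibril protein of melanosomes, had levels of 298 CPM (control) and 63.7 CPM (Dox), which is a log2 ratio of -2.22 (-2.30 to -2.15). Slc45a2, a melanosome transporter, had a ratio of -1.05, Mreg -0.94, Mlana -0.84 and Tyrp1 -0.62, and Dct, named after its value had been seen, -0.60. Pmel, Slc45a2, Mlana, Tyrp1 and Dct are also genes of melanocytes, and the part of melanocyte RNA in these ratios was not tested. Tyr, the tyrosinase, had a ratio of 0.04 (-0.01 to 0.09) and Rdh5, a retinol dehydrogenase of the visual cycle, 0.10 (0.09 to 0.11), and Gpnmb, a glycoprotein of melanosomes and lysosomes, 0.53 (0.49 to 0.57), below the fold of 1.5. In Serpina3n-low cells alone the Gpnmb ratio of Dox to control was -0.49 (-0.54 to -0.44), the opposite direction.

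RPE cells were next split by Serpina3n, a serine protease inhibitor that was high in part of them. At or above 1000 CPM of Serpina3n lay 15 control cells (0.983%, Clopper-Pearson interval 0.551 to 1.62) and 208 Dox cells (12.8%, 11.2 to 14.5), called Serpina3n-high, with the other 1511 and 1422 called Serpina3n-low. Near the limit, at 800 to 1250 CPM, lay 8 control and 28 Dox cells. The Serpina3n-high cells were deeper, with medians of 33954 UMIs in control and 28244 in Dox, against 15957 and 16608 in the low cells.

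Within the Dox library, Rax was higher in the Serpina3n-high cells. Otx2, Lhx2 and Sox10 were lower by more than counting error but less than the fold of 1.5. The share of all genes lower by more than counting error was not computed, and the median log2 ratio of all genes was -0.18. Rax was at 13.8 CPM (10.9 to 17.3) in the high and at 6.12 CPM (5.20 to 7.16) in the low cells, with 77 UMIs in 60 of 208 cells and 157 UMIs in 127 of 1422 cells. The log2 ratio was 1.18 (0.76 to 1.58). Otx2 was at 344 CPM in the high and 468 CPM in the low cells, a ratio of -0.44 (-0.51 to -0.37). Lhx2 was at 37.7 and 52.7 CPM, a ratio of -0.48 (-0.70 to -0.27), and Sox10 at 53.2 and 72.5 CPM, a ratio of -0.45 (-0.63 to -0.27). The intervals of these 4 factors in the 2 groups of cells do not overlap.

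Sox9 went the other way, at 384 CPM in the high and 334 CPM in the low cells, a ratio of 0.20 (0.13 to 0.27). Mitf, at 94.7 and 97.6 CPM, Six3, at 137 and 144 CPM, and Pax6, at 4.31 and 4.80 CPM, had ratios of -0.04 (-0.18 to 0.09), -0.07 (-0.18 to 0.04) and -0.15 (-0.85 to 0.49), which include 0. In all, 1 of 8 factors was higher and 0 were lower, where 4.72% and 20.3% of 11662 genes were, and the median was -0.11 against -0.18 for all genes.

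The depth of the cells moved with some of these levels. With the RPE cells of each library in 3 equal groups from the fewest to the most UMIs, Otx2 was at 513.5, 409 and 352 CPM in control and at 542, 493 and 401 CPM in Dox, and Mitf at 143, 111 and 90.3 CPM in control and at 171, 97.2 and 82.8 CPM in Dox. Sox10 was at 120, 72.7 and 57.0 CPM in control and at 95.8, 84.0 and 55.7 CPM in Dox. Lhx2 moved little, at 52.1, 53.8 and 51.2 CPM in control and at 55.8, 51.2 and 48.2 CPM in Dox. Rax ran the other way in control, at 2.81, 4.49 and 5.11 CPM. In Dox it showed no steady order, at 6.72, 5.90 and 8.53 CPM. Among the deepest of the 3 groups of Dox cells alone, an alternative added after the data had been seen, the ratios of Serpina3n-high to low cells were -0.43 for Otx2, -0.50 for Lhx2, -0.24 (-0.46 to -0.03) for Sox10, 0.21 for Sox9 and 1.01 (0.52 to 1.49) for Rax, of the same signs as over all cells. Mitf there had a ratio of 0.12 (-0.05 to 0.28) and Six3 one of 0.07 (-0.07 to 0.21). The Dox RPE cells were also thinned to 5000 UMIs, which left out the 202 cells with fewer. The ratios of high to low cells were then 0.66 for Rax, -0.31 for Otx2, -0.40 for Lhx2, -0.55 for Sox10 and 0.27 for Sox9. These were again of the same signs. Mitf had -0.29, Six3 -0.23 and Pax6 -1.43. The thinned Rax and Pax6 ratios were past the fold of 1.5 but rested on too few UMIs to be counted.

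Markers of other cells moved with the split as well. Fibroblast markers summed to 602 CPM in the Serpina3n-high and 1799 CPM in the low Dox cells, macrophage markers to 111 and 204 CPM and melanocyte markers to 1960 and 1868 CPM. Their part in the factor ratios was not tested.

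In the control library, the 15 Serpina3n-high cells held 452790 UMIs in all. Otx2 was at 274 CPM (228 to 327) in them and at 392 CPM (384 to 399) in the low cells, a log2 ratio of -0.52 (-0.78 to -0.26). Mitf was at 144 CPM (111 to 183) against 103 CPM (98.7 to 107), a ratio of 0.48 (0.11 to 0.84), and Six3 at 88.3 against 127 CPM, a ratio of -0.53 (-1.01 to -0.08). Rax had 4 UMIs in 3 of the 15 cells, at 8.83 CPM (2.41 to 22.6) against 4.56 CPM, and its ratio of 0.95 (-0.95 to 2.35) included 0. Pax6 had 0 UMIs, with an interval of 0 to 8.15 CPM that holds its 4.18 CPM in the low cells, and Sox10 a ratio of -0.60 (-1.29 to 0.02). By the fold, 1 of 8 factors, Rax, was higher and 2, Pax6 and Sox10, were lower, Pax6 by its count of 0, where 10.7% and 30.3% of 11582 genes were. Each of these 3 rested on 21 UMIs or fewer in the high cells.

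**Figure D2:**
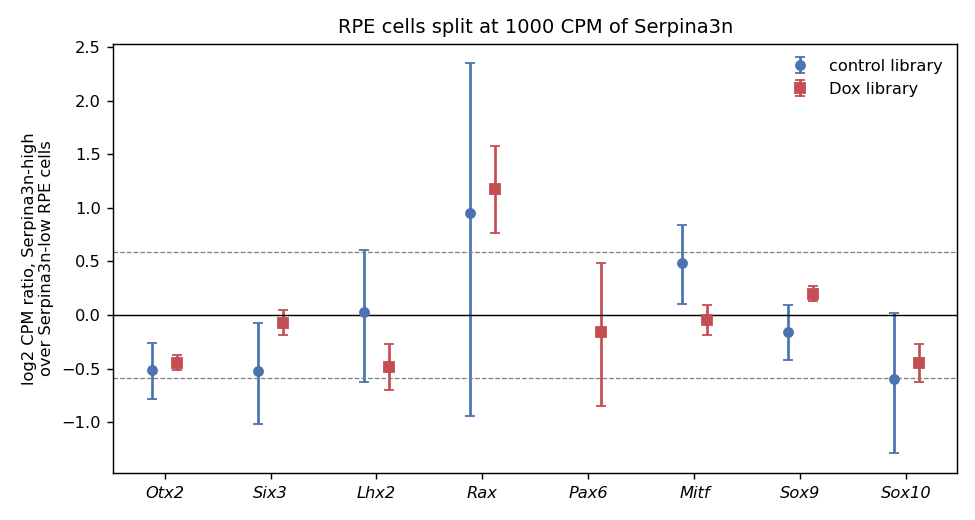
Log2 ratio of CPM in Serpina3n-high over Serpina3n-low RPE cells for 8 transcription factors in each library, with exact conditional binomial 95% intervals of counting error. Dashed lines mark a fold of 1.5. Rax lies at 1.18 and Otx2, Lhx2 and Sox10 between -0.48 and -0.44 in the Dox library, and Pax6 has no point in control, where the high cells held 0 UMIs.

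The other listed transcription factors and target genes were described by the same split of the Dox cells, where 4.72% of all genes were higher and 20.3% lower. Of the other eye factors, 11 had enough UMIs, of which 0 were higher and 4 lower in Serpina3n-high cells, with a median of -0.55. Nr2f1, an orphan nuclear receptor, had a ratio of -1.91 (-3.15 to -0.89) and Nr2f2, its relative, -0.71 (-0.96 to -0.48). The other 2, Zeb2 with -0.71 and Tbx3 with -1.28 (-2.96 to 0.03), were named after their values had been seen. Of the target genes, 20 had enough UMIs, of which 3 were higher and 3 lower, with a median of -0.09. Gpnmb was at 1895 CPM in the high and 241 CPM in the low cells, a ratio of 2.97 (2.93 to 3.02), Mlana had a ratio of 1.18 and Ctsk, a lysosomal protease named after its value had been seen, 0.87. Rpe65 was at 1954 against 5499 CPM, a ratio of -1.49, which is a description because Rpe65 chose the cells and a cell with a low Rpe65 share reached 10 UMIs only when deep. Rgr, a retinal G protein-coupled receptor named after its value had been seen, had -0.87, and Pmel -0.59. All of these genes were counted in the same cells, so that a higher share for one lowers the shares of the rest.

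The cells with fewer than 10 Rpe65 UMIs were grouped by clustering the kept cells of both libraries together. None of the factors was among the features, since the 7 that had been selected were left out. Clusters were named only from marker genes, as fibroblast-like, melanocyte-like, macrophage-like, smooth muscle-like, NK or T-like, endothelial-like and Schwann-like cells, and 2 clusters, led by Cxcl10 and by Snhg7os, stayed unnamed. The Snhg7os-led cluster also held 88 control and 103 Dox cells with at least 10 Rpe65 UMIs, which were counted as RPE cells instead. In finer clusters Snhg7os led the melanocyte-like cells. The part of RPE cells and melanocytes in the rest of the Snhg7os-led cluster was not tested. The melanocyte-like cluster was led by the hemoglobin gene Hbb-bs, with median depths of 1215 UMIs in control and 766 in Dox. At a finer resolution it separated into melanocyte-like and red blood cell-like cells, and values for both are given where they differ.

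Of the homeobox factors, Otx2 was highest in RPE cells of both libraries, with intervals apart from every other group. The next levels in control were 90.5 CPM (79.2 to 103) in the Snhg7os-led cluster and 62.0 CPM (55.8 to 68.7) in melanocyte-like cells, whereas in Dox those groups were at 189 CPM (166 to 213) and 207 CPM (190 to 225) and overlapped. In the finer clusters Otx2 was at 24.7 and 53.0 CPM in melanocyte-like cells and at 146 and 328 CPM in red blood cell-like cells, the latter being the higher. The remaining groups overlapped one another in a row from 20.6 to 29.0 CPM in control and from 17.9 to 40.6 CPM in Dox.

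RNA set free from broken cells can be counted in other droplets, and its part in the levels below was not tested. The low Otx2 levels of cells that should lack it were set against Rgr, Rlbp1, Rdh5 and Ttr, 4 abundant RPE genes, in these cells. Per 1000 of their UMIs, Otx2 had 4.32 UMIs in control and 4.87 in Dox RPE cells, and between 6.89 and 8.26 in control and between 5.07 and 7.43 in Dox in fibroblast-like, endothelial-like, macrophage-like, smooth muscle-like, Cxcl10-led and NK or T-like cells. Lhx2 had 0.578 and 0.546 in RPE cells against 0.630 to 1.22 and 0.435 to 0.701 in those groups. Among those groups the Otx2 ratio differed by less than 1.5-fold within a library, and the Lhx2 ratio rested on few tags in the smaller groups. The Otx2 ratio of each of those groups was above that of the RPE cells of its library.

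Counts were also taken per cell. Cells with fewer UMIs than a thinning keeps were left out of it. With each cell thinned to 1000 UMIs, Otx2 was counted in 34.9% of control and 38.5% of Dox RPE cells and in 3.18% (1.75 to 5.28) and 4.56% (2.38 to 7.83) of NK or T-like cells, which should lack it. Without thinning the shares in NK or T-like cells were 10.5% and 15.8%, at median depths of 3713.5 and 3896 UMIs. Lhx2 was counted in 5.25% and 4.97% of thinned RPE cells against 1.14% and 0.760% of NK or T-like cells, and Sox10 in 7.94% and 7.55% against 0.682% and 0.380%. Each of these shares was higher in RPE cells than in NK or T-like cells.

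Lhx2 was at 6.62 CPM or below in every other group of the control library, apart from its 52.1 CPM in RPE cells, and melanocyte-like cells came next. In Dox, Schwann-like cells, with 3 Lhx2 UMIs, were at 26.2 CPM (5.41 to 76.7) and overlapped the RPE level, and melanocyte-like cells were at 24 CPM. Rax was highest in RPE cells, at 4.64 CPM in control, and the fibroblast-like cells led by Myoc, which came next, had 110 Rax UMIs and 1.87 CPM (1.54 to 2.26). In Dox those fibroblast-like cells were at 2.44 CPM (2.02 to 2.92), close to the 2.50 and 3.27 CPM of the Cxcl10-led and melanocyte-like cells and below the 7.5 CPM of RPE cells.

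Pax6 outside the RPE had 13 UMIs in control and 21 in Dox in the 11080 and 8334 fibroblast-like cells led by Myoc. In the Snhg7os-led cluster, whose part of RPE cells was not tested, Pax6 was at 1.57 CPM in control and at 9.5 CPM (5.06 to 16.3) in Dox. The Dox level came from 13 UMIs, of which 6 lay in 1 cell, and its interval overlapped the RPE level. Crx had 6 UMIs or fewer in each group of either library.

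Six3 did not peak in the RPE when cell types were taken from clusters. In endothelial-like cells it was at 400.5 CPM (371 to 431) in control, from 690 UMIs in 415 cells, and at 379 CPM (340 to 421) in Dox, from 343 UMIs in 241 cells, above the 126 and 143 CPM of RPE cells. Six3 UMIs were counted in 59.0% and 51.0% of the endothelial-like cells. In fibroblast-like cells led by Myoc the levels were 5.71 and 8.28 CPM, and those of NK or T-like cells were 11 and 13 CPM. Per 1000 UMIs of the 4 RPE genes Six3 had 114 UMIs in control and 54.4 in Dox endothelial-like cells, against 1.40 and 1.56 in RPE cells and 1.51 to 2.80 and 1.72 to 2.38 in the other groups named above. The Six3 ratio of endothelial-like cells was thus far above that of every other group given. With cell types taken from the largest marker share, the log2 ratio of Six3 in endothelial to RPE cells turned to -0.69 in control and -1.51 in Dox.

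The neighbouring gene followed Six3. Six3os1 (chromosome 17, 85600651 to 85618398, minus strand), a noncoding gene that overlaps Six3 on the opposite strand, was at 212 and 206 CPM in endothelial-like cells and at 134.5 and 152 CPM in RPE cells. Markers of endothelial cells summed to 83.8 CPM in control and 60.7 CPM in Dox RPE cells. The part of endothelial RNA in the Six3 level of RPE cells was not tested.

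Sox9 was spread over several cell types. In control the Cxcl10-led cluster was highest at 444 CPM (428 to 460), followed by fibroblast-like cells led by Myoc at 346 CPM (341 to 350) and RPE cells at 309 CPM, with intervals apart. The order of the last pair was not stable. The log2 ratio of fibroblast-like to RPE cells was 0.16 there and 0.04 with types taken from the largest marker share. In the finer clusters it was -0.34, but a Coch-led cluster of 6971 control cells stayed unnamed there and was left out. That cluster had 13 fibroblast markers at 10 CPM or more, so that the cells compared were not the same. In Dox the Cxcl10-led cluster was again highest at 441 CPM (425 to 457), and the Snhg7os-led cluster at 349 CPM, RPE cells at 343 CPM and fibroblast-like cells at 338 CPM overlapped. NK or T-like cells were at 90.7 and 108 CPM and macrophage-like cells at 64.6 and 56.7 CPM. The fibroblast-like log2 ratio of Dox to control was -0.03 (-0.06 to -0.00), against 0.15 in RPE cells.

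Sox10 was highest in Schwann-like cells, which it is known to mark, at 519 CPM (417 to 637) in control and 551 CPM (423 to 705) in Dox, from 91 UMIs in 56 cells and 63 UMIs in 32 cells. Melanocyte-like cells followed at 236 CPM (224 to 248) and 182 CPM (166 to 198), or at 239 and 281 CPM in the finer clusters. The first rank rested on the clusters. With types taken from the largest marker share, the log2 ratio of Schwann to RPE cells fell from 2.90 to 0.06 in control. In Dox it fell from 3.00 to 0.42, and both were below the 1.65 and 2.19 of melanocytes. That method called 1341 control and 598 Dox cells Schwann, with summed Schwann markers of 849 and 1574 CPM. By cluster those markers summed to 7276 and 15976 CPM. RPE cells came after the Snhg7os-led cluster, with 69.7 CPM in control and 69.0 CPM in Dox, above the 18.2 and 7.65 CPM of NK or T-like cells and the 11.1 and 5.85 CPM of fibroblast-like cells led by Myoc. In several other groups Sox10 was lower in Dox than in control. The log2 ratio was -0.93 (-1.13 to -0.72) in fibroblast-like cells led by Myoc, -1.25 (-2.42 to -0.22) in NK or T-like cells and -1.31 (-2.16 to -0.53) in macrophage-like cells, against -0.01 in RPE cells. Per 1000 UMIs of the 4 RPE genes Sox10 had 0.772 and 0.754 UMIs in RPE cells and 3.74 to 6.11 in control and 1.18 to 2.54 in Dox in the other groups, a wider gap from the RPE ratio than that of Otx2.

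Mitf was higher in melanocyte-like than in RPE cells, at 298 CPM (284 to 312) in control and 217 CPM (200 to 235) in Dox, and the Snhg7os-led cluster overlapped them at 284 and 213 CPM. In the finer clusters melanocyte-like cells were at 345 and 327 CPM. Macrophage-like cells came after the RPE cells, at 59.9 CPM (53.4 to 67.0) in control and 38.5 CPM (31.7 to 46.3) in Dox, apart from the RPE level in both. Schwann-like cells, with 10 Mitf UMIs in control, were at 57.0 CPM (27.3 to 105) there and overlapped the RPE level. NK or T-like cells were at 30.7 and 14.5 CPM, and the macrophage-like level was above theirs in each library. The macrophage-like interval overlapped, among others, that of endothelial-like cells in control (37.3 to 58.4) and that of smooth muscle-like cells in Dox (20.9 to 35.4). Fibroblast-like cells led by Myoc went from 29.2 to 15.6 CPM, a log2 ratio of -0.91 (-1.03 to -0.78), and the ratio in NK or T-like cells was -1.08 (-1.90 to -0.32). Mitf and Sox10 were thus both lower in Dox in the fibroblast-like cells led by Myoc and in NK or T-like cells, and Otx2 was higher in the same fibroblast-like cells, with a ratio of 0.49 (0.38 to 0.60).

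Tfec, nearly at 0 in the RPE, was highest in macrophage-like cells. It had 31 UMIs and 6.05 CPM (4.11 to 8.58) there in control and 16 UMIs and 5.49 CPM (3.14 to 8.92) in Dox, and 10 UMIs or fewer in each other group. The macrophage-like intervals lay apart from the next group in both libraries.

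**Figure D3:**
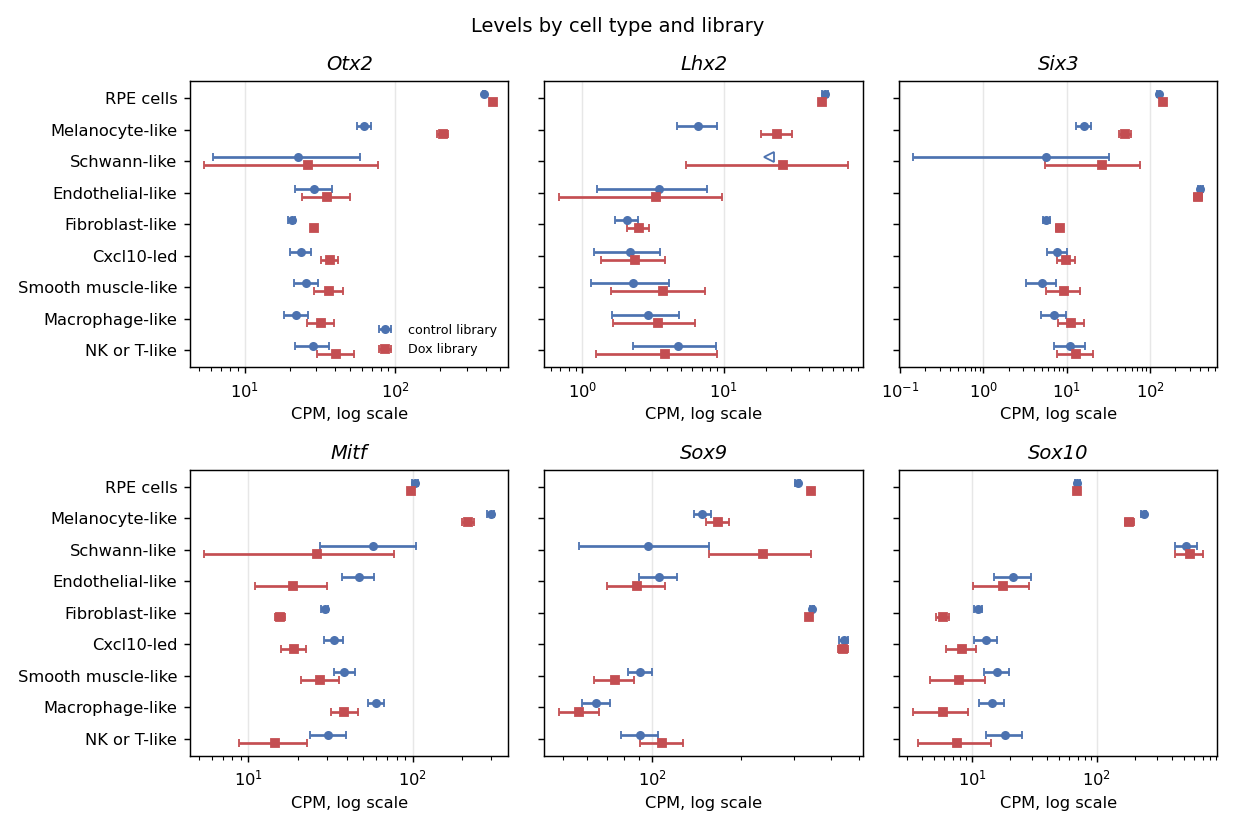
Levels of Otx2, Lhx2, Six3, Mitf, Sox9 and Sox10 (CPM, log axis) in RPE cells and 8 other groups of the control and Dox libraries, the fibroblast-like cells being those led by Myoc, with exact Poisson 95% intervals of counting error. Hollow left-pointing marks are upper limits where 0 UMIs were counted. Otx2 and Lhx2 are highest in RPE cells, Six3 in endothelial-like cells at 400.5 and 379 CPM and Sox10 in Schwann-like cells at 519 and 551 CPM.

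**Figure D4:**
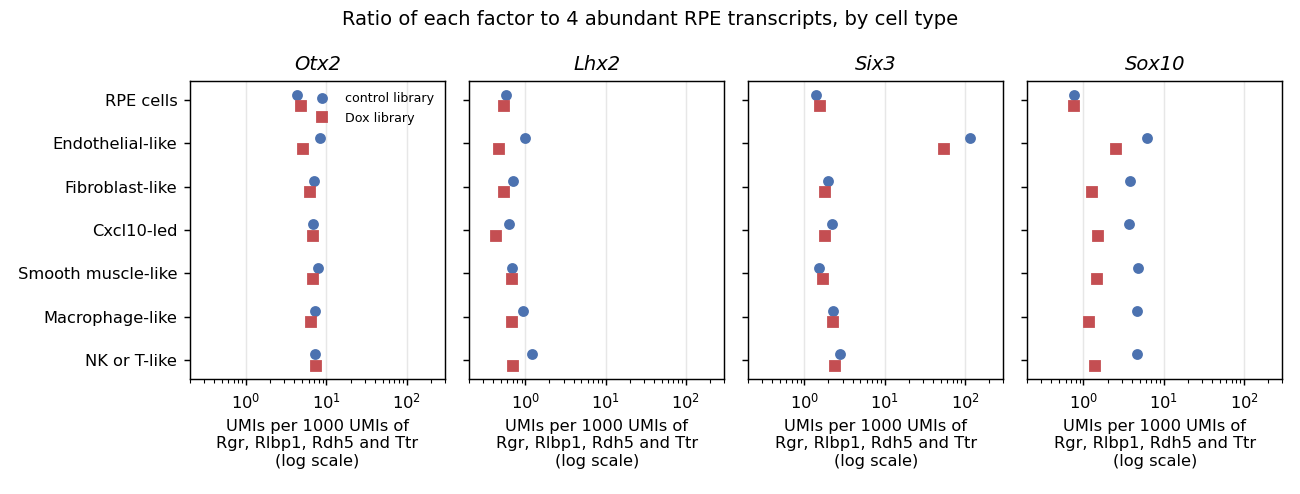
UMIs of Otx2, Lhx2, Six3 and Sox10 per 1000 UMIs of Rgr, Rlbp1, Rdh5 and Ttr (log axis) in RPE cells and 6 other groups of the control and Dox libraries. Otx2 lies between 4.32 and 8.26 and Lhx2 between 0.435 and 1.22 in all groups, Six3 stands at 114 and 54.4 in endothelial-like cells, and Sox10 is above its RPE ratio in each other group shown.

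Within the RPE the factors did not vary alike. The 10% of RPE cells with the highest Malat1, a nuclear noncoding RNA, were compared with the rest of their library, as 153 and 163 cells with medians of 4117 and 4378 UMIs against 17728 and 19950. Mitf was at 314 CPM in the Malat1-rich and 97.2 CPM in the other control cells, and at 348 and 89.6 CPM in Dox, log2 ratios of 1.69 (1.49 to 1.88) and 1.96 (1.78 to 2.13). Sox9 had ratios of 0.44 (0.27 to 0.60) and 1.09 (0.97 to 1.21) and Otx2 of 0.67 (0.53 to 0.81) and 0.49 (0.36 to 0.61). Lhx2 went the other way, with -0.65 (-1.29 to -0.09) and -0.74 (-1.35 to -0.20), and the Six3 and Sox10 intervals included 0 in both libraries. Pax6 had 7 and 5 UMIs and Rax 1 and 5 in the Malat1-rich cells, which leaves their ratios wide. The noncoding genes on the opposite strands of Otx2 and Six3 were higher there too. Otx2os1 (named after its values had been seen) was at 364 CPM in the Malat1-rich and 123 CPM in the other control cells and Six3os1 at 385 and 127 CPM. The Malat1-rich cells were about as shallow as cells of other types, and the part of depth in these ratios was not tested.

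**Figure D5:**
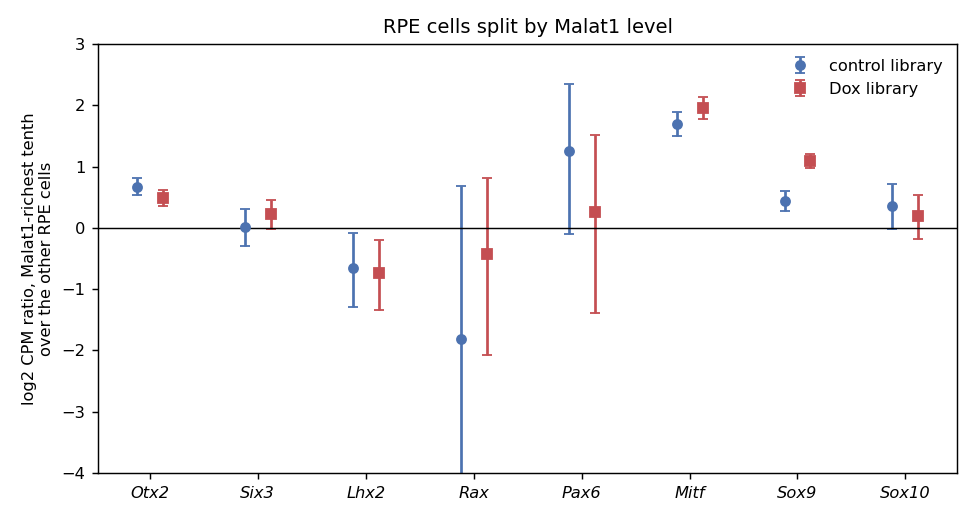
Log2 ratio of CPM in the 10% of RPE cells richest in Malat1 over the other RPE cells for 8 transcription factors in each library, with exact conditional binomial 95% intervals of counting error. Mitf lies at 1.69 and 1.96 and Lhx2 at -0.65 and -0.74, and the control interval of Rax, from 1 UMI, runs below the plotted range to -7.14.

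The RPE cells richest in markers of other cell types, 20% of each library, also differed from the rest. The 76 markers summed for this left out those that were also target genes. Of the melanocyte list only Kit, Ednrb and S100b remained, so that melanocyte RNA was hardly measured by this sum. Otx2 had log2 ratios of -0.51 in control and -0.33 in Dox, Lhx2 of -0.69 and -0.60, Sox10 of -0.40 and -0.36 and Six3 of -0.50 and -0.16, all lower where other markers were high. Sox9 had -0.06 (-0.14 to 0.03) and 0.09 (0.02 to 0.17), and Mitf -0.25 and -0.08. Without those cells Rax was still the factor past the fold in Dox against control.

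With every RPE cell thinned to 5000 UMIs, which left 1340 control and 1428 Dox cells, at least 1 Otx2 UMI was counted in 81.0% and 84.2%, Sox9 in 73.8% and 75.4%, Six3 in 45.7% and 50.1%, Mitf in 40.7% and 37.4%, Sox10 in 31.2% and 29.6% and Lhx2 in 23.3% and 23.0%. A cell held a median of 3 of the 8 factors, with a range of 0 to 7 in each library. None of the 8 was counted in 21 control cells (1.57%, 0.973 to 2.39) and in 10 Dox cells (0.700%, 0.336 to 1.28). Otx2 and Sox9 were counted together in 61.0% (58.4 to 63.7) and 63.1% (60.5 to 65.6) of the cells, and both with Mitf in 25.9% and 23.7%. The intervals of these shares overlapped between the libraries. Each share comes from 1 random draw of UMIs, and its interval does not cover the spread between draws. In another draw, of the 1326 Serpina3n-low control cells, Otx2 and Sox9 were counted together in 64.3%.

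Genes whose pattern was most like that of a factor were named by Pearson correlation of log2(CPM + 1) over 22 points, the cell types of both libraries, among 13736 genes. The points share libraries and may share free RNA, and the coefficients are descriptions. Otx2 was followed by Slc7a10 (0.98), Ermn (0.98) and Cspg5 (0.97), Lhx2 by E130120K24Rik, A930028N01Rik and Folr1 (0.97, 0.97 and 0.96), and Mitf by Arhgef37, Bhlhe41 and Tyr (0.94 each). Six3 was most like Slco1a4 (0.96), Six3os1 (0.94) and Slc2a1 (0.91). Sox10 was most like Arhgef16, Kcna2 and Cdh19 (0.95, 0.94 and 0.94), Sox9 like Echdc2 (0.91), Hibadh (0.88) and Phpt1 (0.87), Pax6 like Gckr, Vax2os and Nwd1 (0.95, 0.94 and 0.94), and Rax like Asb16 (0.85), Col8a1 (0.84) and Pm20d1 (0.84). Among the factors, Otx2 and Pax6 (0.90) and Otx2 and Lhx2 (0.82) were most alike and Sox10 and Rax (0.06) least.

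Overlapping genes could share tags where strand is not resolved. Otx2os1, which overlaps Otx2 on the opposite strand (chromosome 14, 48668708 to 48870683, plus strand), had 129.5 CPM in the control and 131 CPM in the Dox RPE cells, and Pax6os1 had 0 and 1 UMIs.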

How the data were processed

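Single-cell RNA libraries of the RPE, choroid and sclera of control and Dox mice were analysed, 1 per condition. The authors deposited raw UMI counts per gene and cell, made by alignment to mm10 in Cell Ranger, whose version the file header gives as 4.0.0. The control library held 117731270 UMIs in 20381 barcodes and the Dox library 103997248 in 15649. A cell was kept when its mitochondrial share was below 0.2, its ratio of log10 genes to log10 UMIs above 0.8, its number of genes above 200 and below 6000 and its UMIs above 500. No doublet caller was run, and the limit on genes removed 30 control and 78 Dox barcodes with at least 10 Rpe65 UMIs.

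Cells were normalized with SCTransform, integrated and clustered in R 4.3.3 with Seurat 5.3.0, sctransform 0.4.2 and SeuratObject 5.2.0 on 2993 features and 40 principal components at a resolution of 0.1. A cluster was named when at least 3 markers reached 10 CPM and at least 1 was among its 10 leading genes at 50 CPM or more, a rule set after the clusters had been seen. UMIs were summed per group in pandas 2.3.3, numpy 2.4.6 and scipy 1.17.1 under Python 3.11.15, and intervals are at 95%. No p-value was computed, since 1 library per condition has no replicate. All 10 factors were named, with Rpe65, Serpina3n and, from each other list, at most the 5 largest and 5 smallest ratios and, for likeness, the 3 genes with the highest correlation among genes with at least 200 UMIs. The factors, lists, markers and splits were chosen with earlier results of these data known. The ratio interval and the call by fold were tested on counts simulated under a Poisson model without spread between cells or mice. Thinning took 1 random draw of UMIs per cell and was tested by its mean, and clustering, cell types and the Serpina3n split were not simulated. Positions of genes come from GENCODE vM21 (GRCm38), and figures were drawn with matplotlib 3.10.9. Alternatives were other cell filters, Rpe65 and Serpina3n limits, UMI minimums, folds and scalings, thinning, and other ways to assign cell types.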

Additional observations from a re-analysis of the deposited data

Results flagged for a closer look

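Mitf, Sox9 and Lhx2 had ratios of opposite sign between the libraries when Serpina3n-high RPE cells were set against Serpina3n-low ones. For Mitf the log2 ratio was 0.4848 in control and -0.0433 in Dox, for Sox9 -0.1554 and 0.2006, and for Lhx2 0.0242 and -0.4812. In control the intervals of Sox9 and Lhx2 include 0, and in Dox that of Mitf does. With cells thinned to 5000 UMIs the Mitf ratio was -0.2945 in control and -0.2881 in Dox and the Sox9 ratio 0.0144 and 0.2728, so that neither pair had opposite signs, while Lhx2 had 0.4908 and -0.4039. The control values rest on 15 cells, and the differences between the libraries were not tested.

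Sox9 also had ratios of Dox to control of opposite sign to that of RPE cells, which was 0.15, in 3 other cell types. The values were -0.0314 in fibroblast-like cells led by Myoc, -0.4502 in fibroblast-like cells led by Sfrp4 and -0.2857 in smooth muscle-like cells, and these differences were not tested.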

How the results depend on the processing

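No paired analysis was possible because each condition had 1 library. Of 234 values of single factors under alternatives, 189 stayed within their counting interval, 42 moved beyond it and 3 reversed. A change of sign was called reversed only where the main ratio was past the fold of 1.5. Other changes of sign were counted among those that stayed or moved, such as the Pax6 ratio of Dox to control in RPE cells. It was 0.20, and -0.04 with the mean of the cells' own CPM. Over 12 alternatives the log2 ratio of Dox to control in RPE cells ran from 0.64 to 0.80 for Rax and from 0.15 to 0.20 for Otx2. With at least 3 Rpe65 UMIs that ratio was -0.32 for Mitf and -0.22 for Sox10. With the mean of the cells' own CPM it was 0.0063 for Mitf, in place of -0.09, and with cells thinned to 5000 UMIs 0.2092 for Lhx2, in place of -0.06. The thinned values come from 1 random draw, and the spread between draws was not measured. At a fold of 2 in place of 1.5, 0 factors were higher in Dox. With cells thinned to 5000 UMIs, which leaves fewer UMIs per gene, 0 factors were counted as higher in Serpina3n-high than low Dox cells, Rax having a ratio of 0.66 on too few UMIs, and the median was -0.2974, in place of 1 and -0.1118. In control, where the high cells numbered 15, the count of higher factors went from 1 to 0 with the split at 500 or 2000 CPM or with thinning, and to 2 in the deepest of 3 equal groups of cells. The count of lower factors went from 2 to 1 with the split at 2000 CPM, thinning, without the cells rich in other markers, or in the deepest group, and to 4 with the mean of the cells' own CPM. The Rax ratio there reversed to -0.0369 with the split at 500 CPM. Where cell types were taken from the largest marker share instead of clusters, the log2 ratio of Six3 in endothelial to RPE cells reversed to -0.6869 in control and -1.5066 in Dox, and that of Sox10 in Schwann to RPE cells went from 2.90 to 0.06 and from 3.00 to 0.42. That method called 1992 and 1630 cells endothelial, with summed endothelial markers of 3512 and 2584 CPM. By cluster these were 415 and 241 cells with 12904 and 12681 CPM. The same method called 1341 and 598 cells Schwann, with summed Schwann markers of 849 and 1574 CPM. By cluster these were 56 and 32 cells with 7276 and 15976 CPM. In control, 4 factors were higher in RPE cells than in every other type, 2 with the finer clusters and 5 with the largest marker share. In Dox these counts were 3, 2 and 4. The finer clusters included a Gm26917-led one of 300 control and 362 Dox cells. Of these, 129 and 193 had at least 10 Rpe65 UMIs, and the part of RPE cells in its rest was not tested. Depth limits Crx, Tfec, Pax6 and Rax most, and the alternative of the deepest group was chosen after seeing the data.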
